A study of Mus musculus with 2 samples.

Results

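The genes described here are 31 genes of cholesterol and fatty acid synthesis and of their control by the sterol regulatory element binding proteins (SREBPs), taken by symbol from the 32285 features measured in single cells of the mouse aorta. The list holds 6 genes of the mevalonate and isoprenoid steps, 11 of the steps from squalene to cholesterol, 5 of SREBP control, 8 of fatty acid synthesis and 1 sterol carrier gene. Each symbol was found once among the features, and none of the 31 was used as a cell type marker.

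The libraries came from aortas of male C57BL6 mice taken between the arch and the division at the pelvis, digested with enzymes and captured with the 10x Genomics 3′ chemistry. The overexpression group carried Cept1fl/fl and a tamoxifen-induced Cre (VE-cadherin-Cre-ERT2, driven by the promoter of an endothelial adhesion gene), and is described as an endothelial Cept1 overexpression model. The control group was Cept1fl/fl without Cre, so the floxed allele was shared by both groups. Cept1 encodes an enzyme that completes phosphatidylcholine and phosphatidylethanolamine synthesis. Per the protocols, 5 daily tamoxifen injections of 1 mg were given from an age of at least 8 weeks, with 5 days of recovery, while the age label gives 6 to 8 weeks. Tissue of 3 mice was taken per condition, and the labels do not say whether it was pooled. There was 1 library per group, so no test between groups was possible, all intervals cover counting error only, and mouse, library and genotype cannot be told apart.

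Cholesterol is built from acetyl-CoA by way of mevalonate, isoprenoid diphosphates, squalene and lanosterol. When sterols in the endoplasmic reticulum run low, the escort protein SCAP carries SREBP to the Golgi for cleavage, and the released factor enters the nucleus and raises transcription of nearly every enzyme of the route. INSIG proteins hold SCAP back when sterols are plentiful. SREBP-2, from Srebf2, mainly drives sterol genes, and SREBP-1, from Srebf1, mainly drives fatty acid genes. In the vessel wall the route supplies membrane to growing endothelial and smooth muscle cells, and lymphocytes raise it when they are activated to divide.

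Promoters are shown for 3 of the genes that were lower in B cells of the overexpression library (values below), as examples of sequence shared by genes of one route. They are Hmgcs1, an enzyme at the start of the mevalonate route, Idi1, an isoprenoid isomerase, and Insig1, the sterol-sensing brake. Each is the 250 bases before the RefSeq start site in build GRCm38.p6, read 5′ to 3′ on the plus strand, which is the coding strand of all 3 genes. The gene annotation used for coordinates below starts Idi1 and Insig1 further upstream, so the last bases of these 2 windows lie within the gene in that annotation. The windows are chr13:119690101-119690350 for Hmgcs1, chr13:8885356-8885605 for Idi1 and chr5:28071162-28071411 for Insig1. Capitals mark matches, on either strand, to TCACNCCAC (a sterol regulatory element sequence), CACGTG (an E-box), CCAAT (bound by NF-Y) and GGGCGG (a GC box, bound by Sp1). CCAAT on the other strand reads ATTGG, and GGGCGG reads CCGCCC. No 2 matches overlapped in these windows.
Hmgcs1: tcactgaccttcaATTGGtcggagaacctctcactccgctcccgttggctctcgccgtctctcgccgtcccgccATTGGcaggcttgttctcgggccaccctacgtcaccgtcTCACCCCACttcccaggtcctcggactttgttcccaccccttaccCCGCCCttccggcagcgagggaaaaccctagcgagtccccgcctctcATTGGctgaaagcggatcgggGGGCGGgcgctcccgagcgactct
Idi1: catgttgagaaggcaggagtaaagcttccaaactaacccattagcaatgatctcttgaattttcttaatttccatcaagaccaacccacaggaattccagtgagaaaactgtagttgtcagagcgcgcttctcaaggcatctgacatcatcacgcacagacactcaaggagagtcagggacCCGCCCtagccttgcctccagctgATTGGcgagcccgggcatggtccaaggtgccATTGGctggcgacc
Insig1: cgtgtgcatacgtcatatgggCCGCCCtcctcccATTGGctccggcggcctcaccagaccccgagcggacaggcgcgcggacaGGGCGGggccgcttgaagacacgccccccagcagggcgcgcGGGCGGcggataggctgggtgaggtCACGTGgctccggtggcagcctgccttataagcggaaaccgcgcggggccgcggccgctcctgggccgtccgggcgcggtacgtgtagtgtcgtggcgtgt

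The Hmgcs1 window held 1 sterol regulatory element match, beginning 137 bases before the start site, with 3 CCAAT and 2 GC box matches. Idi1 held 2 CCAAT matches and 1 GC box match, and Insig1 held 1 E-box, 1 CCAAT and 3 GC box matches. RefSeq windows were at hand for 25 of the 31 genes, in 34 windows where a gene has several starts. A CCAAT match was present in 22 of those 34 windows, against 33.8% of the 32851 mouse windows of the same length. GC boxes were found in 24 of the 34, against 32.7% of all windows. E-boxes were found in 5 of the 34, against 6.02%, and the sterol element in 1, that of Hmgcs1, against 1.05%. These are matches of letters and say nothing about binding in these cells.

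The deposited matrices held 17728 barcodes with 95735360 unique molecular identifiers (UMIs, each counting 1 captured RNA molecule) in the overexpression library and 14349 barcodes with 88220524 UMIs in the control library. After filtering, 11168 and 8729 cells were kept, with medians of 6439 and 6735 UMIs. Cells were assigned by UMIs of marker genes, and 7 classes reached 100 cells in both libraries, each with every one of its own markers detected. Fibroblast-like cells were the most numerous, with 5488 in the overexpression library and 4121 in the control. The others were macrophage-like (1661 and 787), endothelial-like (1140 and 514), smooth muscle-like (693 and 576), lymphatic endothelial-like (261 and 129), B-like (204 and 582) and T or NK-like cells (191 and 505). Red cell markers were present in every class. Levels are given as CPM, the UMIs of a gene per 1000000 UMIs of its class, and the red cell sum ran from 1984 to 7574 CPM, with 7574 and 5866 CPM in B-like cells of the overexpression and control libraries. In all, 74 barcodes occurred in both libraries. Ratios are log2 of the overexpression library over the control library with an exact 95% interval. A gene counts as measured in a class with at least 50 UMIs over both libraries, and as past the fold with a log2 ratio of at least 0.5 in either direction, which is 1.41-fold.

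Endothelial-like cells, a class in which Cre is driven, showed the sterol and fatty acid genes at nearly the same level in both libraries. Cept1 itself was higher. Cept1 had 1113 UMIs (125 CPM) in the overexpression library and 387 (75.1 CPM) in the control, a log2 ratio of 0.73 (0.57 to 0.91). The 17 sterol enzyme genes together had 1571 UMIs (176 CPM) and 930 UMIs (181 CPM), a log2 ratio of -0.03 (-0.15 to 0.09). The 8 fatty acid synthesis genes stood at 303 and 295 CPM, with a ratio of 0.04 (-0.05 to 0.13).

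Of the 31 genes, 27 were measured in endothelial-like cells, and Mvd, Sqle, Lss and Tm7sf2 were not. Their median log2 ratio was 0.00186, against -0.00191 over the 11391 genes measured there. Hsd17b7, a ketosteroid reductase of the late sterol steps, was past the fold, with 38 UMIs (4.27 CPM) in the overexpression library and 14 (2.72 CPM) in the control, a ratio of 0.65 with an interval of -0.27 to 1.65 that spans 0. No measured gene of the list was past the fold in the lower direction, against 6.75% of all genes, and 5.8% of all genes were past it in the higher direction.

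The next largest ratios in endothelial-like cells were small. Me1, malic enzyme, a source of NADPH for lipid synthesis, had 340 UMIs (38.2 CPM) and 154 UMIs (29.9 CPM), a ratio of 0.35 (0.07 to 0.64). Fasn, fatty acid synthase, stood at 22.0 and 17.5 CPM, with a ratio of 0.33 (-0.03 to 0.71). Cyp51, the demethylase acting on lanosterol, had 51 UMIs in the overexpression library and 37 in the control, a ratio of -0.33 (-0.97 to 0.32). Ebp, a sterol isomerase, had 300 UMIs (33.7 CPM) and 215 (41.7 CPM), a ratio of -0.31 (-0.57 to -0.05). The regulators were close to level, each with an interval that spans 0. Srebf2 stood at 28.5 and 28.9 CPM, a ratio of -0.02 (-0.32 to 0.28), and Insig1 at 26.4 and 24.9 CPM, a ratio of 0.09 (-0.23 to 0.41). Srebf1, Scap and Insig2 had ratios of -0.07, -0.03 and 0.19.

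**Figure D1:**
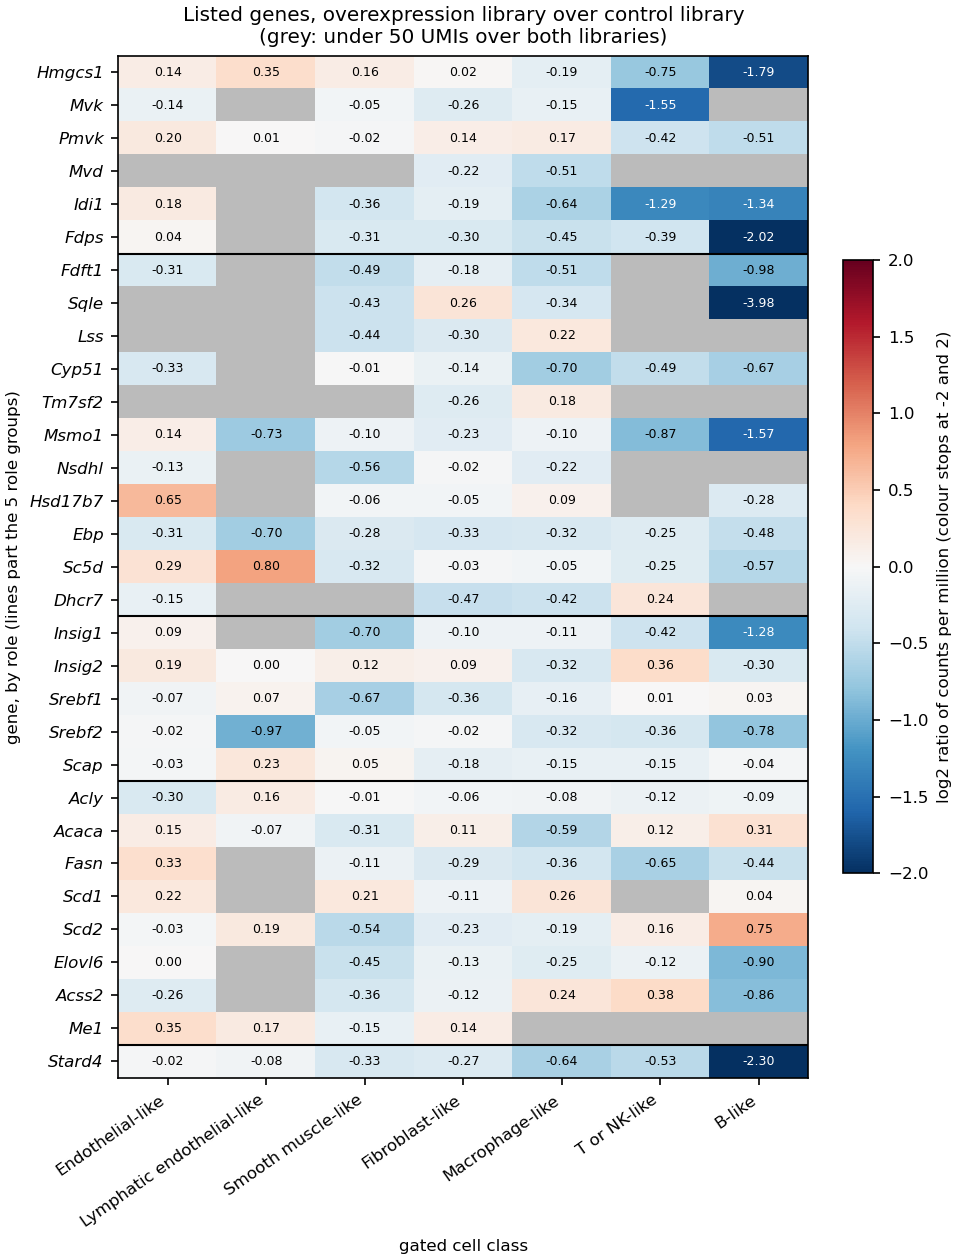
Log2 ratio of the overexpression library over the control library for each of the 31 genes (rows, parted by role) in the 7 cell classes (columns); blue is lower in the overexpression library, red is higher, and grey marks fewer than 50 UMIs. The endothelial-like column is pale, with 1 of 27 values past 0.5, and the B-like column is mostly blue, with 14 of 24 values at or below -0.5.

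Endothelial subtypes were compared in the same way, and differences between them were not tested. Their mix moved with the library, arterial-like cells being 733 of 1140 and 238 of 514 endothelial-like cells. In arterial-like cells Cept1 stood at 118 and 70.3 CPM, a ratio of 0.75 (0.52 to 0.98), and the sterol enzyme sum had a ratio of -0.05 (-0.20 to 0.10). Fdft1, squalene synthase, was lower there, with 43 UMIs (6.77 CPM) and 33 UMIs (11.5 CPM), a ratio of -0.76 (-1.45 to -0.06). Scd2, a stearoyl-CoA desaturase, stood at 107 and 128 CPM in arterial-like cells, a ratio of -0.25 (-0.44 to -0.07). In capillary-like cells (301 and 203) the sterol enzyme sum had a ratio of 0.08 (-0.15 to 0.32), and in venous-like cells (95 and 63) of -0.08 (-0.50 to 0.34).

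Fasn was higher in capillary-like cells of the overexpression library, with 68 UMIs (37.6 CPM) against 26 (16.3 CPM), a ratio of 1.21 (0.54 to 1.92). One cell of the overexpression library held 16 of the 68 UMIs, and without the cell of most Fasn UMIs in each library the ratio was 1.0 (0.27 to 1.78). Adipocyte markers moved with it: the 6 markers summed to 751 CPM in capillary-like cells of the overexpression library and 223 CPM in the control, with none of the 6 at 0, and 1 cell held 795 of the 1359 UMIs. In the 218 and 138 capillary-like cells without an adipocyte marker UMI, Fasn stood at 16.8 and 8.25 CPM on 19 and 7 UMIs, a ratio of 1.03 (-0.28 to 2.52). The part of adipocyte RNA in the Fasn ratio was not tested beyond these values.

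B-like cells showed the largest difference of the 7 classes, with sterol enzyme genes lower in the overexpression library and fatty acid synthesis genes level in sum. The 17 sterol enzyme genes had 175 UMIs (165 CPM) in 204 cells of the overexpression library and 1286 UMIs (343 CPM) in 582 cells of the control, a log2 ratio of -1.05 (-1.29 to -0.82). Per cell this was 0.858 and 2.21 UMIs, and a sterol enzyme UMI was seen in 52.9% and 70.3% of cells, at median depths of 4456 and 5394 UMIs per cell. With every cell thinned to 2000 UMIs, which left out 1 and 13 shallower cells, the means were 0.365 and 0.671 sterol enzyme UMIs per cell. The 8 fatty acid synthesis genes stood at 477 and 470 CPM, a ratio of 0.02 (-0.12 to 0.17).

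The mevalonate genes had the lowest summed ratio of the role groups with more than 1 gene. Their sum of 6 genes was 55 and 504 UMIs (52.0 and 134 CPM), a ratio of -1.37 (-1.80 to -0.97). Hmgcs1, which makes the precursor of mevalonate, had 12 UMIs (11.3 CPM) in the overexpression library and 147 (39.2 CPM) in the control, a ratio of -1.79 (-2.77 to -0.94). Idi1, which interconverts the first isoprenoid diphosphates, had 14 UMIs (13.2 CPM) and 126 (33.6 CPM), a ratio of -1.34 (-2.26 to -0.54). Fdps, which makes farnesyl diphosphate, had 7 UMIs (6.62 CPM) and 101 (26.9 CPM), a ratio of -2.02 (-3.38 to -0.93). In GRCm38 Hmgcs1 lies at chr13:119690379-119708260 (plus strand), Idi1 at chr13:8885501-8892451 (plus) and Fdps at chr3:89093588-89101959 (minus). For these 3 genes the Poisson intervals of the levels in the 2 libraries did not overlap. Pmvk, phosphomevalonate kinase, was closer, at 16.1 and 22.9 CPM, with a ratio of -0.51 (-1.36 to 0.25).

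Among genes from squalene onward, Sqle, squalene epoxidase, had 1 UMI (0.945 CPM) in B-like cells of the overexpression library and 56 (14.9 CPM) in the control, a ratio of -3.98 (-9.31 to -1.44). Msmo1, a methylsterol oxidase, had 17 UMIs (16.1 CPM) and 179 (47.7 CPM), a ratio of -1.57 (-2.38 to -0.85). Cyp51 had 31 UMIs (29.3 CPM) and 175 (46.6 CPM), a ratio of -0.67 (-1.27 to -0.11). Of the later enzymes, Sc5d had 15 UMIs (14.2 CPM) and 79 (21.1 CPM), a ratio of -0.57 (-1.47 to 0.24), and Ebp stood at 18.0 and 25.1 CPM, a ratio of -0.48 (-1.27 to 0.24). The sum of the 11 genes of these steps was 113 and 208 CPM, a ratio of -0.88 (-1.17 to -0.60).

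The regulators split in B-like cells. Srebf2 lies at chr15:82147181-82205379 (plus strand) and Insig1 at chr5:28071363-28078662 (plus). Insig1, itself an SREBP target, had 17 UMIs (16.1 CPM) and 146 (38.9 CPM), a ratio of -1.28 (-2.09 to -0.55). Srebf2 had 102 UMIs (96.4 CPM) and 622 (166 CPM), a ratio of -0.78 (-1.10 to -0.48). Insig2 (28.4 and 34.9 CPM), Scap (18.9 and 19.5) and Srebf1 (14.2 and 13.9) had ratios of -0.30, -0.04 and 0.03, each with an interval that spans 0. Stard4, a carrier that moves cholesterol between membranes, had 4 UMIs (3.78 CPM) against 70 (18.7 CPM), a ratio of -2.30 (-4.22 to -0.88).

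The fatty acid genes of B-like cells went both ways. Scd1, a stearoyl-CoA desaturase, was level at a high value, with 337 UMIs (318 CPM) and 1159 (309 CPM), a ratio of 0.04 (-0.14 to 0.22). Scd2 had 27 UMIs (25.5 CPM) and 57 (15.2 CPM), a ratio of 0.75 (0.03 to 1.43). Elovl6, which lengthens palmitate, stood at 7.56 and 14.1 CPM with a ratio of -0.90 (-2.19 to 0.18), and Acss2, which makes acetyl-CoA from acetate, at 11.3 and 20.5 CPM with a ratio of -0.86 (-1.87 to 0.03). Acaca, acetyl-CoA carboxylase, had a ratio of 0.31 (-0.15 to 0.75) and Acly, which splits citrate to acetyl-CoA, of -0.09 (-0.56 to 0.36).

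Counted over the list in B-like cells, 24 genes were measured, and Mvk, Mvd, Lss, Tm7sf2, Nsdhl, Dhcr7 and Me1 had fewer than 50 UMIs. Of the 24, 14 were past the fold in the lower direction and 1, Scd2, in the higher. Over all 8004 genes measured there, 15.2% were past it in the lower direction and 8.61% in the higher. The median log2 ratio of the 24 was -0.62, against -0.06 over all genes. The control library held 3752074 of the UMIs of B-like cells and the overexpression library 1058095, so a gene reached 50 UMIs mostly through its control level. The count of 14 was 8 of 16 measured genes with a stricter cell filter, 1000 genes or more and mitochondrial UMIs up to 5%. The share of all genes under that filter was not computed.

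Other features of the B-like cells moved with the library. A Cd69 UMI, an early activation marker, was seen in 56.4% and 43.0% of B-like cells of the Cept1 and control libraries. A Myc UMI was seen in 30.4% and 14.9%, a Fcer2a UMI in 62.3% and 70.8%, and at least 2 of 8 cell cycle genes in 0.98% and 3.09%. The 8 cell cycle genes summed to 12.3 and 279 CPM, with Ccnb1, Birc5 and Tpx2 at 0 in the overexpression library, and the 7 macrophage markers, none at 0, to 175 and 66.9 CPM. The 5 monocyte markers, none at 0, summed to 1024 and 710 CPM, and the 5 Schwann or neural markers, Sox10 at 0 in the overexpression library, to 95.5 and 8.26 CPM. The median share of mitochondrial UMIs was 6.25% and 4.63%. The part of these markers and of RNA quality in the ratios was not tested. Cd69, Myc, Fcer2a and the lymphoid genes below were chosen after their values were seen. The summed level of the sterol enzyme genes was lower in the overexpression library on both sides of the Cd69, Myc and Fcer2a splits and in cells below 2 cell cycle genes. The ratio was -0.75 (-1.06 to -0.45) in cells with a Cd69 UMI and -1.40 (-1.79 to -1.04) in cells without one. It was -1.28 (-1.73 to -0.85) in cells with a Myc UMI and -0.97 (-1.26 to -0.70) without, -1.06 with a Fcer2a UMI and -1.01 without, and -1.0 (-1.24 to -0.77) in cells below 2 cell cycle genes.

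**Figure D2:**
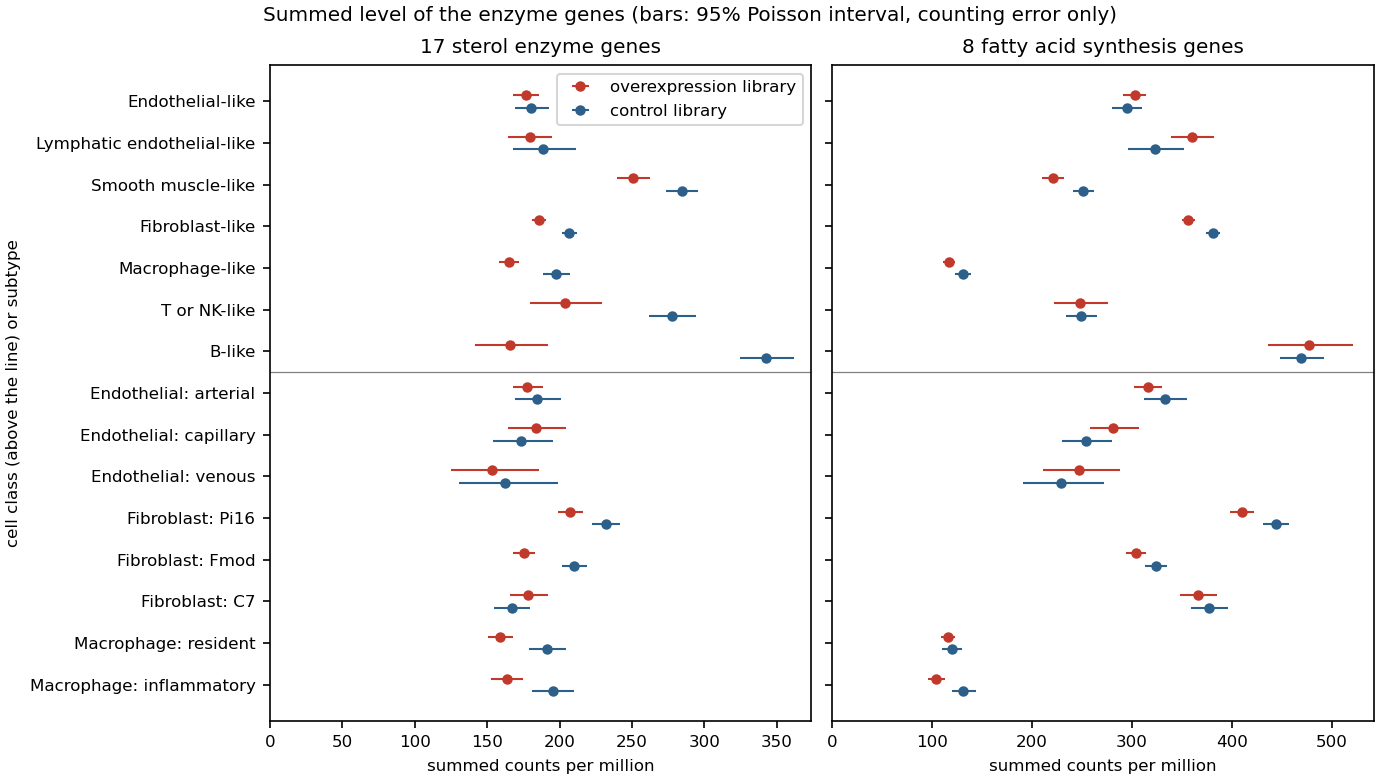
Summed CPM of the 17 sterol enzyme genes (left) and the 8 fatty acid synthesis genes (right) in each class and subtype, with red points for the overexpression library, blue for the control and bars for the 95% Poisson interval of the counts. In B-like cells the sterol sums stand apart at 165 and 343, while the fatty acid sums overlap at 477 and 470.

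T or NK-like cells showed a smaller difference of the same direction, carried mainly by the mevalonate genes. Summed sterol enzyme genes had 267 UMIs (204 CPM) and 1164 UMIs (278 CPM), a log2 ratio of -0.45 (-0.64 to -0.25). The 6 mevalonate genes were at 68.6 and 115 CPM, a ratio of -0.74 (-1.09 to -0.42), and the 11 genes from squalene onward at 135 and 163 CPM, a ratio of -0.27 (-0.52 to -0.03). The fatty acid genes stood at 248 and 249 CPM, a ratio of -0.01 (-0.19 to 0.17).

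Mvk, mevalonate kinase, had 8 UMIs (6.10 CPM) in T or NK-like cells of the overexpression library and 75 (17.9 CPM) in the control, a ratio of -1.55 (-2.82 to -0.50). Idi1 had 15 UMIs (11.4 CPM) and 117 (27.9 CPM), a ratio of -1.29 (-2.17 to -0.51). Msmo1 had 14 UMIs (10.7 CPM) and 82 (19.6 CPM), a ratio of -0.87 (-1.81 to -0.05), and Hmgcs1 21 (16.0 CPM) and 113 (26.9 CPM), a ratio of -0.75 (-1.50 to -0.07). Fasn stood at 16.0 and 25.0 CPM, a ratio of -0.65 (-1.40 to 0.04), and Stard4 at 18.3 and 26.5 CPM, a ratio of -0.53 (-1.23 to 0.11). Srebf2 had 101 UMIs (77.0 CPM) and 414 (98.7 CPM), a ratio of -0.36 (-0.69 to -0.04).

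Mvk, Idi1, Msmo1, Hmgcs1, Fasn and Stard4 were the 6 genes past the fold in the lower direction among 22 measured in T or NK-like cells, and none was past it in the higher direction. Mvd, Fdft1, Sqle, Lss, Tm7sf2, Nsdhl, Hsd17b7, Scd1 and Me1 had fewer than 50 UMIs. The control library held 4193274 of the UMIs of T or NK-like cells and the overexpression library 1311807. A gene therefore reached 50 UMIs mostly through its control level. Over the 8507 genes measured, 8.75% were lower past the fold and 13.6% higher, and the medians were -0.31 for the list and 0.06 for all genes. The count was 10 with TMM scaling and 1 of 14 measured genes with the stricter marker gate, and the shares of all genes under these settings were not computed. In cells thinned to 2000 UMIs 4 genes were measured, with none lower past the fold and a median of 0.0477, while the sterol enzyme sum had a ratio of -0.48.

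The mix of T or NK-like cells moved with the library as well. A Ccr7 UMI, a marker of naive and central memory cells, was seen in 36.6% of cells of the overexpression library and 61.6% of the control, a Lef1 UMI in 75.4% and 90.3%, a Cd69 UMI in 44.5% and 21.4%, and at least 2 cell cycle genes in 10.5% and 4.95%. Within cells with a Ccr7 UMI, 70 and 311 in number, the sterol enzyme sum was 124 and 273 CPM, a ratio of -1.14 (-1.54 to -0.76). Within the 121 and 194 cells without one it was 251 and 287 CPM, a ratio of -0.19 (-0.44 to 0.05). Ccr7 was also among the dendritic markers used to assign cells. Split by Cd69, the ratio was -0.78 (-1.09 to -0.48) with a UMI and -0.27 (-0.53 to -0.01) without. Split by Nkg7, a T or NK marker, it was -0.52 (-0.82 to -0.23) with a UMI and -0.30 (-0.57 to -0.04) without. The ratio was -0.49 (-0.72 to -0.27) with a Lef1 UMI and -0.51 (-0.96 to -0.07) without. In the cells without one, 1 control cell held 45 of the 112 control UMIs, and the ratio without that cell was not computed. The 29 and 67 cells with a Rag1 UMI, a gene of developing lymphocytes, stood at 302 and 319 CPM, a ratio of -0.08 (-0.54 to 0.36). Whether these splits differ from each other was not tested.

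Macrophage-like cells were lower in the overexpression library by a smaller amount than lymphoid cells, with 2 genes, Idi1 and Stard4, past the fold as in the lymphoid classes. Summed sterol enzyme genes had 2421 UMIs (165 CPM) and 1736 UMIs (198 CPM), a log2 ratio of -0.26 (-0.35 to -0.17). The SREBP control genes summed to 161 and 187 CPM, a ratio of -0.22 (-0.31 to -0.12), and the fatty acid genes to 117 and 131 CPM, a ratio of -0.16 (-0.27 to -0.05).

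Cyp51 had 127 UMIs (8.65 CPM) in macrophage-like cells of the overexpression library and 123 (14.0 CPM) in the control, a ratio of -0.70 (-1.06 to -0.33). Stard4 had 139 UMIs (9.47 CPM) and 130 (14.8 CPM), a ratio of -0.64 (-1.0 to -0.29), and Idi1 127 (8.65 CPM) and 118 (13.4 CPM), a ratio of -0.64 (-1.01 to -0.26). Acaca had 284 UMIs (19.3 CPM) and 255 (29.0 CPM), a ratio of -0.59 (-0.84 to -0.34). Mvd, which makes isopentenyl diphosphate, stood at 4.97 and 7.06 CPM with a ratio of -0.51 (-1.01 to 0.01), and Fdft1 at 2.79 and 3.99 CPM with a ratio of -0.51 (-1.20 to 0.18).

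These 6 were past the fold in the lower direction among 30 genes measured in macrophage-like cells, all but Me1, and 24 of the 30 had a ratio below 0. No gene was past the fold in the higher direction. Over the 11566 genes measured, 5.91% were lower past the fold, 5.47% were higher, and 47.9% had a ratio below 0. Median depth was 8170 and 10388 UMIs, T or NK markers summed to 11.4 and 55.7 CPM over 8 markers (Ncr1 at 0 in the control), and the 5 red cell markers, none at 0, to 5839 and 3574 CPM. The part of these markers was not tested. With the stricter cell filter the count was 3 of 28 measured genes, and the share of all genes under that filter was not computed. Stard4 in cells thinned to 2000 UMIs had a ratio of 0.0237, while the sterol enzyme sum there had -0.31. In another random draw a Stard4 UMI was seen in 1.55% and 2.33% of thinned cells of the overexpression and control libraries. The sterol enzyme means in that draw were 0.327 and 0.427 UMIs per cell.

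**Figure D3:**
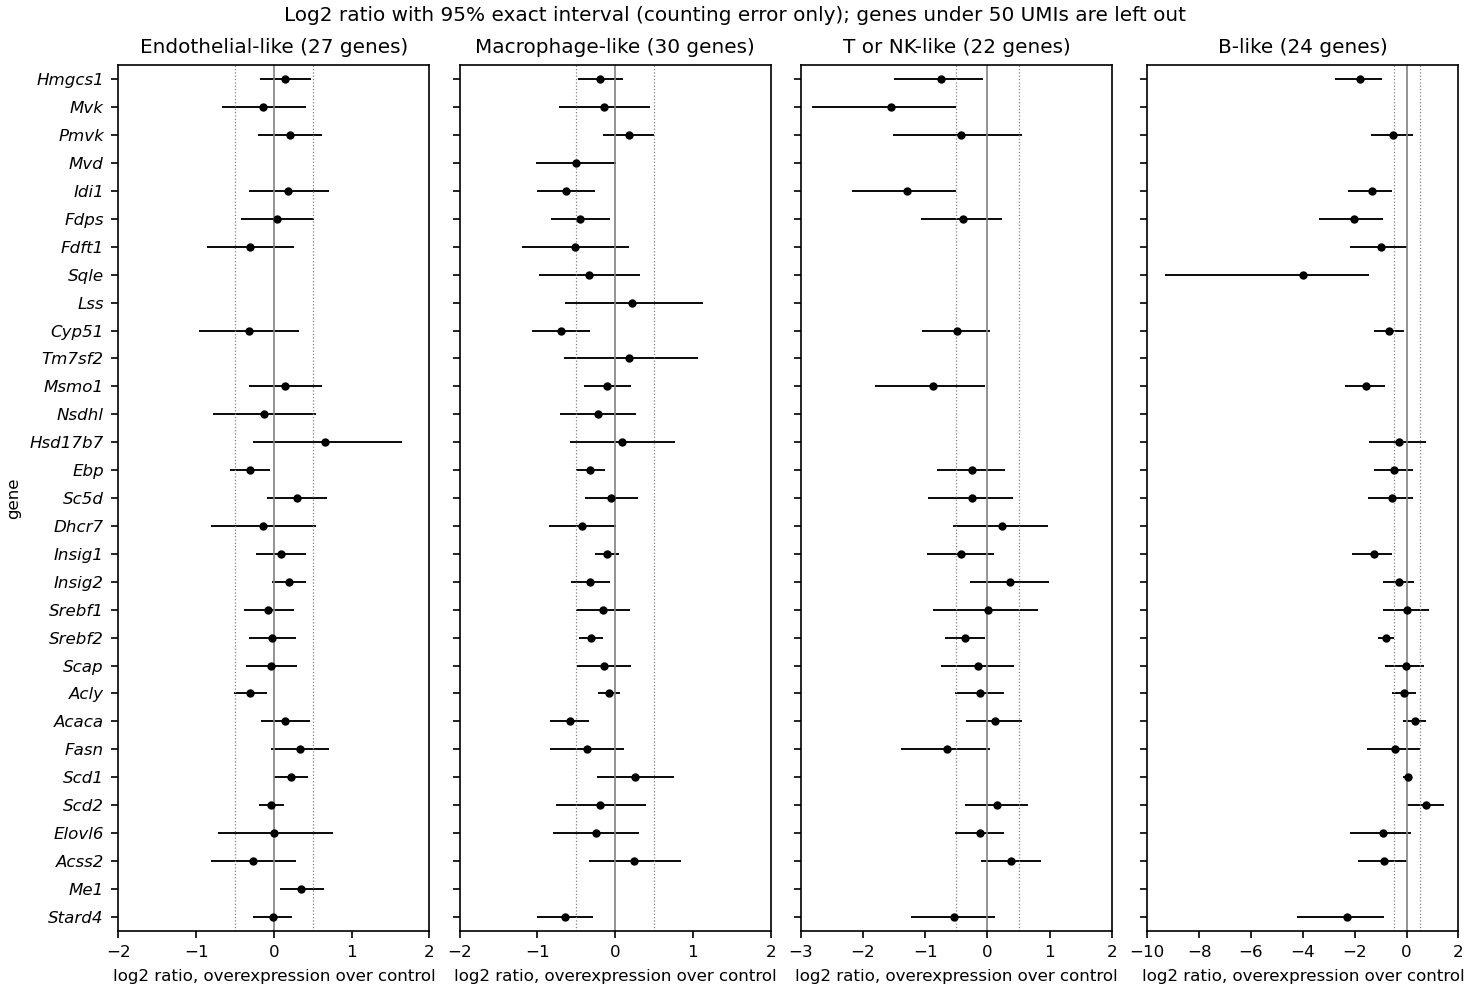
Log2 ratio (x axis, Cept1 over control, with wider axes for T or NK-like and B-like cells) of each measured gene in 4 classes, with the exact 95% interval of the counts; solid lines mark 0 and dotted lines mark -0.5 and 0.5. The intervals of Hmgcs1, Idi1, Fdps, Sqle, Msmo1, Insig1, Srebf2 and Stard4 in B-like cells lie below 0, and those of the same genes in endothelial-like cells span 0 where measured.

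Both macrophage subtypes had a lower sterol enzyme sum in the overexpression library. Resident macrophage-like cells (1079 and 493 cells, by Folr2, Cd163, Lyve1, F13a1 and Cbr2) had 159 and 191 CPM, a ratio of -0.27 (-0.39 to -0.14). Inflammatory cells (510 and 259, by Ccl3, Ccl4, Cxcl2, Il1b and Tnf) had 163 and 195 CPM, a ratio of -0.26 (-0.40 to -0.11). Idi1 had ratios of -0.61 (-1.16 to -0.05) and -0.76 (-1.33 to -0.20) in them, and Stard4 of -0.67 (-1.15 to -0.18) and -0.66 (-1.25 to -0.08). Insig2 stood at 20.4 and 30.4 CPM in inflammatory cells, a ratio of -0.58 (-0.97 to -0.18). The fatty acid sum had a ratio of -0.34 (-0.52 to -0.16) in inflammatory and -0.04 (-0.19 to 0.11) in resident cells. Macrophages with at least 2 Arg1 UMIs numbered 31 and 1 and were not compared.

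Smooth muscle-like cells had lower levels in the overexpression library for 2 of the 5 SREBP control genes and for a desaturase. The measured genes from squalene to cholesterol were also lower, all but Nsdhl by smaller amounts. All 9 of them had a ratio below 0, and the 11 genes of these steps summed to 129 and 155 CPM, a ratio of -0.27 (-0.39 to -0.15). Insig1 had 118 UMIs (15.7 CPM) and 231 (25.4 CPM), a log2 ratio of -0.70 (-1.03 to -0.37). Srebf1 had 121 UMIs (16.1 CPM) and 233 (25.7 CPM), a ratio of -0.67 (-1.0 to -0.35). Scd2 had 230 UMIs (30.6 CPM) and 405 (44.6 CPM), a ratio of -0.54 (-0.78 to -0.31). Nsdhl, a decarboxylating sterol dehydrogenase, had 42 UMIs (5.59 CPM) and 75 (8.26 CPM), a ratio of -0.56 (-1.14 to 0.00), and Fdft1 124 (16.5 CPM) and 210 (23.1 CPM), a ratio of -0.49 (-0.82 to -0.16). Srebf2 was level, at 62.3 and 64.6 CPM, and Insig2 stood at 82.5 and 75.9 CPM, a ratio of 0.12 (-0.04 to 0.28).

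The sterol enzyme sum of smooth muscle-like cells was 251 and 285 CPM, a ratio of -0.18 (-0.27 to -0.10), and 24 of the 28 measured genes, all but Mvd, Tm7sf2 and Dhcr7, had a ratio below 0, against 53.7% of all genes. Insig1, Srebf1, Scd2 and Nsdhl, 4 of the 28, were past the fold in the lower direction and none in the higher, against 5.24% and 4.95% of the 11362 genes measured. Depth moved with the library, with medians of 10443 UMIs per cell in the overexpression library and 15242 in the control, and with cells thinned to 2000 UMIs the sterol enzyme ratio was -0.20 while the list median was -0.0116, with 2 of 12 measured genes past the fold. The share of all genes past the fold in thinned cells was not computed. In cells without any adipocyte marker UMI the median ratio of the list was 0.0525 over 15 measured genes, against -0.30 in all cells. The sterol enzyme ratio in that subset was 0.0195, against -0.18 in all cells. That subset left out 70.7% and 78.3% of the cells, and leaving out only cells with an adipocyte marker other than Plin4 gave a sterol enzyme ratio of -0.20.

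Fibroblast-like cells, the class with the most UMIs, showed small differences, mostly lower in the overexpression library. All 31 genes were measured, and 25 had a log2 ratio below 0, against 58.4% of the 14271 genes measured. The median was -0.14, against -0.04 over all genes. None was past the fold in either direction, where 6.59% of all genes were lower and 3.27% higher. The sterol enzyme sum was 5970 UMIs (186 CPM) and 6374 UMIs (207 CPM), a ratio of -0.16 (-0.21 to -0.10). The 5 neutrophil markers, none at 0, summed to 20.5 and 230 CPM in these cells, and their part in the ratios was not tested.

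The 5 largest ratios in fibroblast-like cells were all below 0. Dhcr7, the reductase of the last sterol step, had 141 UMIs (4.38 CPM) and 187 (6.06 CPM), a ratio of -0.47 (-0.79 to -0.15). Srebf1 stood at 21.6 and 27.6 CPM with a ratio of -0.36 (-0.50 to -0.21), and Ebp at 36.0 and 45.2 CPM with a ratio of -0.33 (-0.44 to -0.22). Fdps had a ratio of -0.30 (-0.50 to -0.11), and Lss, lanosterol synthase, of -0.30 (-0.78 to 0.19). Acaca (45.6 and 42.2 CPM) and Me1 (44.1 and 40.0 CPM) were slightly higher, with ratios of 0.11 (0.00117 to 0.22) and 0.14 (0.03 to 0.25).

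The sterol enzyme sum was lower in Fmod and Pi16 fibroblasts of the overexpression library, while its interval spanned 0 in C7 fibroblasts. Sterol enzyme genes in sum had a ratio of -0.26 (-0.35 to -0.17) in Fmod fibroblasts (2040 and 1516 cells, by Fmod, Rbp4, Ccn5 and Comp), of -0.16 (-0.25 to -0.08) in Pi16 fibroblasts (1200 and 897, by Pi16, Gfpt2 and Dpp4), and of 0.10 (-0.05 to 0.25) in C7 fibroblasts (651 and 508, by C7, Penk and Bmper). In Fmod fibroblasts Fdps had 112 UMIs (9.79 CPM) and 186 (16.9 CPM), a ratio of -0.79 (-1.14 to -0.45), while Sqle had 65 (5.68 CPM) and 34 (3.10 CPM), a ratio of 0.87 (0.25 to 1.52). In C7 fibroblasts Mvk had a ratio of -0.92 (-1.66 to -0.22) and Nsdhl of 0.78 (0.03 to 1.56), and adipocyte markers summed to 131 CPM in the overexpression library, 403 of their 531 UMIs in 1 cell, and 19.7 CPM in the control. Srebf1 stood at 21.8 and 30.7 CPM in Pi16 fibroblasts, a ratio of -0.50 (-0.75 to -0.24). The differences between subtypes were not tested.

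In lymphatic endothelial-like cells 14 of the 31 genes were measured, the other 17 having fewer than 50 UMIs, and the sterol enzyme sum was level at 179 and 189 CPM, a log2 ratio of -0.07 (-0.28 to 0.13). Srebf2 had 72 UMIs (23.7 CPM) and 74 (46.3 CPM), a ratio of -0.97 (-1.45 to -0.48). Sc5d, a sterol desaturase, had 76 UMIs (25.0 CPM) and 23 (14.4 CPM), a ratio of 0.80 (0.11 to 1.54). Msmo1 had 31 UMIs (10.2 CPM) and 27 (16.9 CPM), a ratio of -0.73 (-1.52 to 0.07), and Ebp 88 (29.0 CPM) and 75 (46.9 CPM), a ratio of -0.70 (-1.16 to -0.23). Hmgcs1 had a ratio of 0.35 (-0.30 to 1.04). Srebf2, Msmo1 and Ebp were past the fold in the lower direction and Sc5d in the higher, where 7.05% and 6.98% of the 8823 genes measured were. In cells thinned to 2000 UMIs 2 genes of the list were measured, and Msmo1 there had a ratio of 1.29. In another random draw a Msmo1 UMI was seen in 1.94% and 3.17% of thinned cells of the overexpression and control libraries. All 7 endothelial markers were also detected in lymphatic endothelial-like cells, summing to 4225 and 4378 CPM. Whether Cre acted in these cells was not tested.

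Across the 7 classes, Idi1, Msmo1 and Stard4 were the genes past the fold in 3 of them, each in the lower direction. Idi1 and Stard4 were so in macrophage-like, T or NK-like and B-like cells, and Msmo1 in lymphatic endothelial-like, T or NK-like and B-like cells. The intervals of Stard4 in T or NK-like cells and of Msmo1 in lymphatic endothelial-like cells span 0. The share of all genes past the fold in 3 classes was not computed, so these 3 genes have no background beside them. The classes share the 2 libraries, so these are not separate observations of the genotype. In fibroblast-like cells Idi1 stood at 7.86 and 8.98 CPM and Stard4 at 8.17 and 9.86 CPM, ratios of -0.19 (-0.44 to 0.06) and -0.27 (-0.51 to -0.03). In endothelial-like cells Idi1 stood at 11 and 9.71 CPM, a ratio of 0.18 (-0.32 to 0.70), and Stard4 at 40.1 and 40.6 CPM, a ratio of -0.02 (-0.27 to 0.24).

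**Figure D4:**
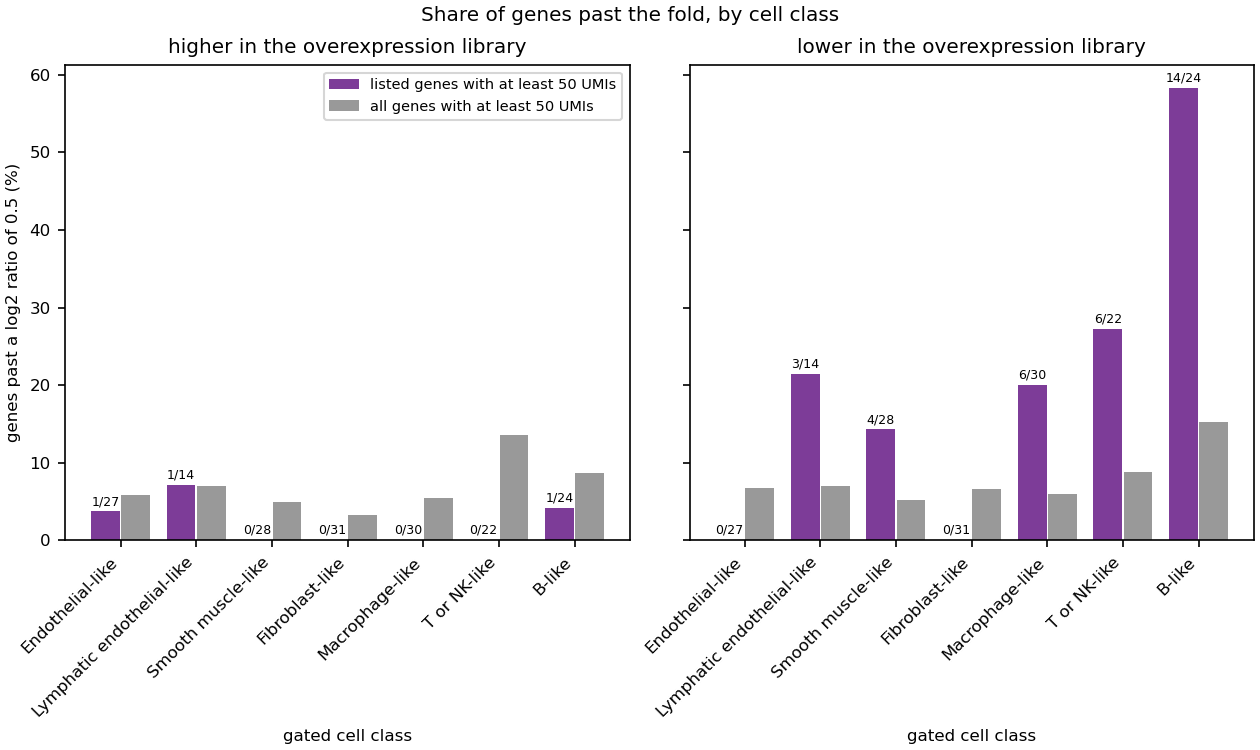
Percent of measured genes with a log2 ratio of at least 0.5, higher (left) or lower (right) in the overexpression library, for the listed genes (purple, with counts) and for all measured genes (grey) in each class. The lower share of the list was 58.3% in B-like cells against 15.2% of all genes, and 0 of 27 in endothelial-like cells.

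Levels of several of these genes differed widely between classes in both libraries. For 20 of the 31 genes the same class had the highest level in both libraries. For 7 of them, Pmvk, Insig1, Acly, Scd1, Elovl6, Acss2 and Me1, the interval of that class lay above the interval of the next class in both libraries. Desaturase and elongase genes were highest in separate classes. Scd1 stood at 318 and 309 CPM in B-like cells, 74.6 and 80.4 in fibroblast-like cells, and 3.81 and 2.38 in T or NK-like cells. A Scd1 UMI was seen in 71.6% and 74.6% of B-like cells, and in 2.62% and 0.79% of the deeper T or NK-like cells (medians of 6478 and 7398 UMIs). Scd2, a related gene on chromosome 19, was highest in lymphatic endothelial-like (140 and 123 CPM), fibroblast-like (110 and 129) and endothelial-like cells (94.6 and 96.9). It was lowest in macrophage-like cells, at 4.5 and 5.13 CPM. T or NK-like cells ranked above smooth muscle-like cells for Scd2 in the overexpression library and below them in the control. Elovl6 was highest in T or NK-like cells, at 52.6 and 57.2 CPM, with 7.56 and 14.1 in B-like cells and under 8 CPM in the other classes.

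Suppliers of acetyl-CoA and NADPH also differed by class. Me1 stood at 59.6 and 66.3 CPM in smooth muscle-like cells and at 29.9 to 44.1 CPM in the fibroblast-like and both endothelial-like classes, against 0.945 to 2.15 CPM in the 3 leukocyte classes. Acly was highest in lymphatic endothelial-like cells, at 129 and 116 CPM, followed by macrophage-like cells at 68.0 and 71.8. Acss2 was highest in T or NK-like cells, at 40.4 and 31 CPM, against 20.5 CPM or less in the others. Pmvk was highest in lymphatic endothelial-like cells, at 41.5 and 41.3 CPM.

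Insig1 was highest in macrophage-like cells, at 61.8 and 66.5 CPM, and lowest in lymphatic endothelial-like cells, at 9.21 and 6.88. Insig2, the related brake, stood at 82.5 and 75.9 CPM in smooth muscle-like and 72.1 and 71.9 in lymphatic endothelial-like cells, and was lowest in macrophage-like cells of the overexpression library (20.8 CPM) and T or NK-like cells of the control (18.4 CPM). Srebf2 was highest in B-like cells of both libraries (96.4 and 166 CPM), although in the overexpression library its interval of 78.6 to 117 overlapped that of T or NK-like cells, 62.7 to 93.6. Stard4 was highest in endothelial-like (40.1 and 40.6 CPM) and lymphatic endothelial-like cells (36.2 and 38.1), which did not differ beyond their intervals. The sterol enzyme sum was highest in smooth muscle-like cells of the overexpression library (251 CPM) and in B-like cells of the control (343 CPM).

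**Figure D5:**
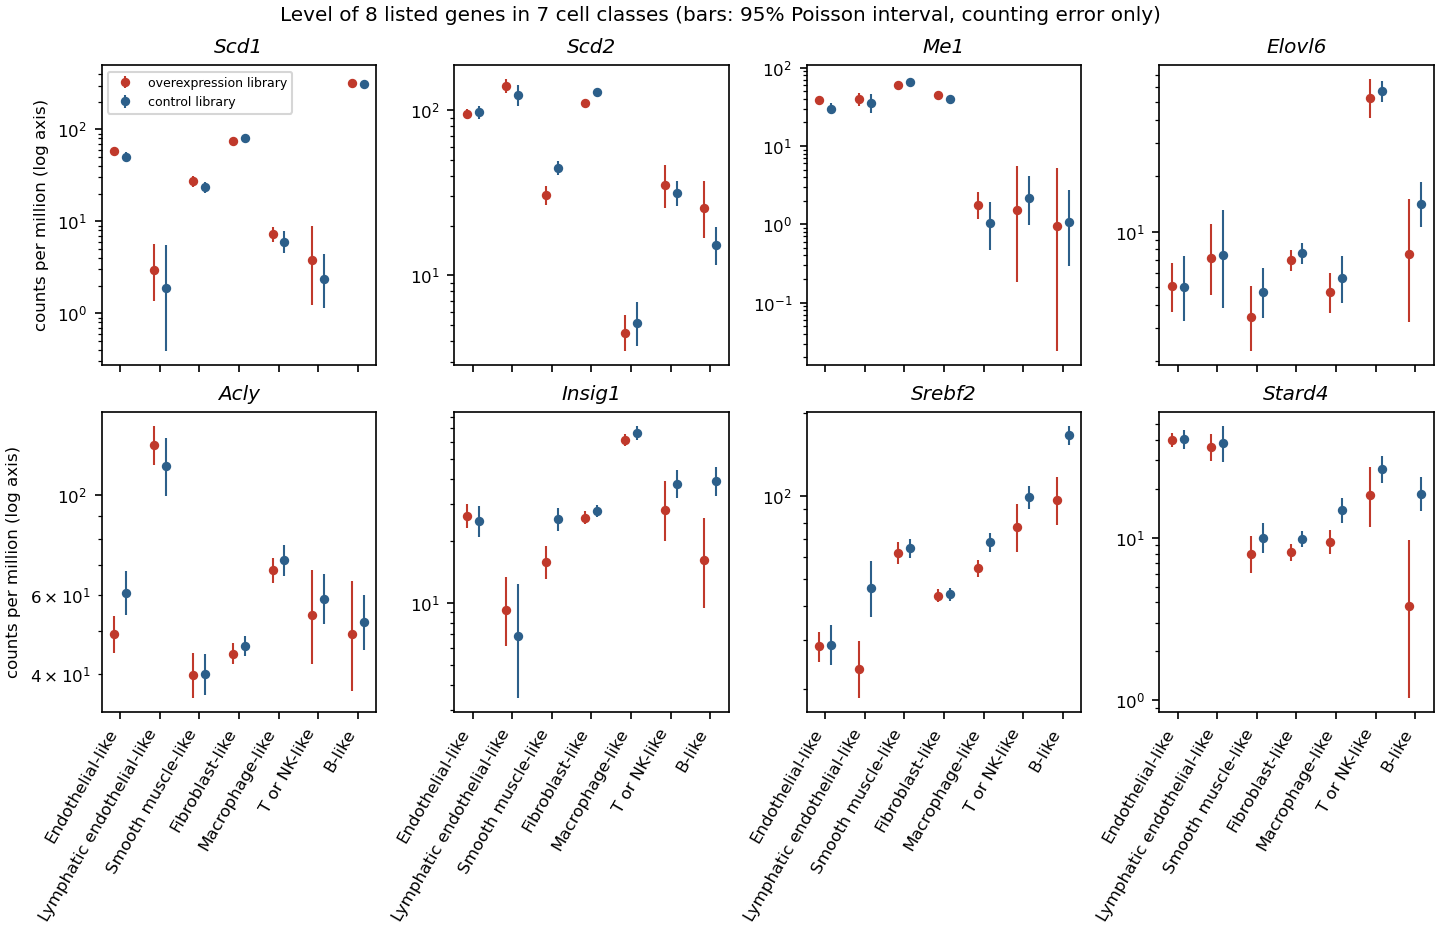
CPM (log axes, each panel with its own range) of 8 genes in the 7 classes, with red points for the overexpression library, blue for the control and bars for the 95% Poisson interval. Scd1 stands highest in B-like cells, at 318 and 309, and Me1 lies at 2.15 or below in the 3 leukocyte classes, while Srebf2 and Stard4 in B-like cells are lower in the overexpression library.

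A further 32 genes of the same pathways, outside the 31, did not share the lower direction in B-like cells. Of 25 measured there, 4 were past the fold in the higher direction and 5 in the lower, with a median log2 ratio of 0.04. These are 16% and 20%, against 8.61% and 15.2% of all genes. In T or NK-like cells 3 of 25 were higher and 2 lower, which is 12% and 8% against 13.6% and 8.75%. The lower ones in B-like cells were Elovl1 (-1.06), Acat2 (-0.96), Hsp90b1 (-0.66), Nr1h2 (-0.52) and Tecr (-0.52). Acat2, a thiolase that condenses acetyl-CoA at the entry of the mevalonate route, was also lower past the fold in T or NK-like cells (-0.65) and macrophage-like cells (-0.52), and higher in endothelial-like cells, with 84 UMIs (9.44 CPM) and 31 (6.02 CPM), a ratio of 0.65 (0.04 to 1.29).

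The genes of LXR control and of sterol export, storage and lysosomal release summed to 627 and 479 CPM in B-like cells, a ratio of 0.39 (0.26 to 0.52), and to 560 and 636 CPM in T or NK-like cells, a ratio of -0.18 (-0.30 to -0.06). Of 9 of them measured in each class, 7 had a ratio above 0 in B-like and 5 in T or NK-like cells. Abca1, a cholesterol exporter induced by the oxysterol receptors LXR, had 213 UMIs (201 CPM) and 432 (115 CPM) in B-like cells, a ratio of 0.81 (0.56 to 1.05), and a ratio of 0.70 (-0.01 to 1.38) in T or NK-like cells. Abcg1, a second exporter, had ratios of 0.80 (0.41 to 1.18) and 0.53 (0.16 to 0.88) in these classes. Npc2, a lysosomal cholesterol carrier, had 290 UMIs (221 CPM) and 1380 (329 CPM) in T or NK-like cells, a ratio of -0.57 (-0.76 to -0.39). Lipa, the lysosomal acid lipase, stood at 26.5 and 13.9 CPM in B-like cells, a ratio of 0.93 (0.22 to 1.62). Macrophage-like cells, which handle much cholesterol, had Abca1 at 527 and 407 CPM, a ratio of 0.37 (0.32 to 0.43).

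In endothelial-like cells Abcg1 was lower, at 23.6 and 35.5 CPM, a ratio of -0.59 (-0.88 to -0.30). So was Nr1h3, which encodes LXR alpha, at 7.41 and 11.6 CPM, a ratio of -0.65 (-1.18 to -0.12). Nr1h3 was also lower past the fold in macrophage-like cells (-0.61) and smooth muscle-like cells (-0.50). Differences between the endothelial subtypes in Abcg1 and Nr1h3 were not tested. Nr1h3 had 38 and 23 UMIs in capillary-like cells, a ratio of 0.54 (-0.24 to 1.36), and in arterial-like cells 24 and 25 UMIs, too few to count as measured, with a ratio of -1.20 (-2.07 to -0.34). Abcg1 was level in capillary-like cells, with a ratio of 0.02 (-0.50 to 0.54), and lower in arterial-like cells, with -0.80 (-1.20 to -0.39). Thrsp, a lipogenic gene, had 346 UMIs (38.9 CPM) and 455 (88.3 CPM) in endothelial-like cells, a ratio of -1.18 (-1.39 to -0.98). Capillary-like cells held 334 and 423 of these UMIs and were a smaller part of the class in the overexpression library (301 of 1140 against 203 of 514 cells). Within them Thrsp stood at 185 and 265 CPM, a ratio of -0.52 (-0.73 to -0.31). Among these 32 genes, 1 of 31 measured in endothelial-like cells was higher past the fold and 3 were lower, which is 3.23% and 9.68% against 5.8% and 6.75% of all genes.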

How the data were processed

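Whole aorta of 1 Cept1 overexpression and 1 control library was measured by single-cell RNA sequencing. The deposited matrices hold raw UMI counts per gene and barcode, which per the file headers came from Cell Ranger 7.2.0. Per the submitters' processing notes, Cell Ranger, Seurat and build mm10 were used; neither names the annotation or says whether introns were counted. The authors' deposited counts were not changed before summing.

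Barcodes were kept with 500 genes or more and mitochondrial UMIs up to 10%. A cell joined the class with the largest share of its markers detected (at least 50% of the markers, at least 3 of them, and a lead of 20 percentage points over unrelated classes), and 86.3% and 82.6% of kept cells fell in the 7 classes. Subtypes needed at least 2 subtype markers, inflammatory macrophages at least 3. UMIs were summed per class and library, and ratios of CPM were given Clopper-Pearson intervals (from how the UMIs divided between libraries) and levels Poisson intervals, both exact and at 95%. The ratio code was tested on simulated data.

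The 31 genes, the other lists and the markers were chosen with earlier results of these data known. Full values are given for the 5 genes of largest ratio per class, for those past the fold in 3 classes, and for up to 6 other pathway genes past the fold per class; subtype values were chosen for an interval that excludes 0. Doublets were scored with Scrublet, whose automatic thresholds were 0.247 in the overexpression library and 0.709 in the control. The threshold of the overexpression library was used for both as an alternative. Other alternatives were TMM scaling, other cell and gene filters, thinning to 2000 UMIs, a stricter gate and Leiden clusters. Coordinates and promoters are from GRCm38 (GENCODE vM21 and RefSeq). Python 3.11.15, numpy 2.4.6, scipy 1.17.1, pandas 2.3.3 and scanpy 1.11.5 were used.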

Additional observations from a re-analysis of the deposited data

Results flagged for a closer look

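Acaca and Scd2 each had classes whose intervals lay wholly on opposite sides of 0, so that the libraries differed in opposite directions, and in both cases the difference between classes was not tested. Acaca, acetyl-CoA carboxylase, had a log2 ratio of 0.11 (0.00117 to 0.22) in fibroblast-like cells, with 45.6 CPM in the overexpression library and 42.2 CPM in the control, against -0.31 (-0.54 to -0.08) in smooth muscle-like cells and -0.59 (-0.84 to -0.34) in macrophage-like cells. Scd2, a stearoyl-CoA desaturase, had a ratio of 0.75 (0.03 to 1.43) in B-like cells, on 27 and 57 UMIs, against -0.54 (-0.78 to -0.31) in smooth muscle-like cells and -0.23 (-0.29 to -0.16) in fibroblast-like cells. The lower bounds for Acaca in fibroblast-like cells and Scd2 in B-like cells lie close to 0, and the intervals cover counting error only.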

How the results depend on the processing

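No paired analysis was possible because each group has 1 library, so no replicate could be left out either. The sums of the 17 sterol enzyme genes, whose alternatives were chosen after seeing the data, stayed within their interval in 85 of 87 settings. The exceptions were smooth muscle-like cells without any adipocyte marker UMI (0.0195) and thinned fibroblast-like cells (-0.21). Thinning takes UMIs at random, and these values rest on 1 draw. In another draw the means were 0.327 and 0.427 sterol enzyme UMIs per macrophage-like cell, a ratio below the interval of that class. They were 0.329 and 0.404 per fibroblast-like cell, also below the interval. In B-like cells the sterol enzyme sum ranged from -1.13 to -0.92. The thinned means of 0.365 and 0.671 UMIs per B-like cell given above came from the other draw. Their ratio is a smaller difference than this range, within the main interval. Of 595 alternative values of single genes, 575 stayed within their interval, 18 moved and 2 reversed. Both reversals were on thinning to 2000 UMIs: Msmo1 in lymphatic endothelial-like cells (1.29) and Stard4 in macrophage-like cells (0.0237). The other draw did not repeat them. There a Msmo1 UMI was seen in 1.94% and 3.17% of lymphatic endothelial-like cells of the overexpression and control libraries. A Stard4 UMI was seen in 1.55% and 2.33% of macrophage-like cells.

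Counts of genes lower past the fold depended on the setting more often, in 28 of 108. The share of all genes past the fold was computed for the main setting only, so the counts below have no background beside them. Thinning gave 4 in B-like, 0 in T or NK-like, 3 in macrophage-like, 2 in fibroblast-like, 2 in smooth muscle-like and 0 in lymphatic endothelial-like cells, with fewer genes measured. A log2 fold of 1 gave 7, 2, 0 and 0 in B-like, T or NK-like, macrophage-like and smooth muscle-like cells and 0 in lymphatic endothelial-like cells. The stricter cell filter gave 8 in B-like and 3 in macrophage-like cells, TMM scaling 10 and the stricter gate 1 in T or NK-like cells. Leiden clusters gave 1 in lymphatic endothelial-like, 1 in fibroblast-like and 2 in endothelial-like cells, and at least 1 UMI in each library gave 9 in lymphatic endothelial-like and 3 in endothelial-like cells. Without adipocyte marker UMIs the count was 1 in smooth muscle-like cells. In endothelial-like cells, where it was 0, it was 2 with the stricter gate or a minimum of 20 UMIs, and 1 with equal weights of cells or subtypes, without Scrublet calls, and without cells with an adipocyte marker UMI, Plin4 counted or not.

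Medians of the list moved in 4 of 101: thinned to 0.71 in lymphatic endothelial-like, -0.0116 in smooth muscle-like and 0.0477 in T or NK-like cells, and to 0.0525 in smooth muscle-like cells without adipocyte marker UMIs. The causes were not tested. Depth left 17 of the 31 genes under 50 UMIs in lymphatic endothelial-like, 9 in T or NK-like and 7 in B-like cells.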
